A study of Mus musculus with 14 samples.

Results

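The 10 genes described here belong to the unfolded protein response and the integrated stress response: Hspa5, Xbp1, Herpud1, Atf4, Ddit3, Atf3, Trib3, Chac1, Asns and Ppp1r15a. The rule that picks them names gene symbols and sets no limit on any measured value, and they are 10 of the 54446 genes in the deposited table. The symbol Ddit3 stood at 2 identifiers, and the second, ENSMUSG00000116429, was listed at 0 in every library and was not used further. Gene positions are those of the GENCODE M21 annotation on GRCm38, the assembly also called mm10, and all 10 genes are protein-coding. Liver RNA had been sequenced as total RNA in 8 libraries of Mettl3 liver-specific knockout mice, which carry Mettl3 floxed and Alb-Cre, and in 6 libraries of control mice, which carry Mettl3 floxed alone. All were C57BL/6 mice of 5 weeks of age, and the liver had been flash-frozen. The labels number the libraries without saying that each came from its own mouse, so p-values measure the spread between these libraries. Alb-Cre drives Cre from the albumin promoter, which is active in hepatocytes, and these whole-liver data do not show which other cells keep Mettl3; which exon is deleted is not given in the sources used here.

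Proteins that fold badly in the endoplasmic reticulum (ER) are sensed by IRE1, PERK and ATF6, and these sensors switch on chaperones, folding enzymes and ER-associated degradation, the route by which misfolded proteins are passed to the proteasome. PERK and other kinases phosphorylate the translation factor eIF2, which lowers protein synthesis overall while the transcription factor ATF4 is translated, and this wider route is the integrated stress response. The liver secretes most plasma proteins, so its hepatocytes carry a heavy load of ER folding. METTL3 is the catalytic subunit of the enzyme that methylates adenosines in mRNA.

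The promoters of Hspa5 and Herpud1 are shown first, because these were the 2 members of the ER branch that changed most and they changed in opposite directions. The windows run over the 250 bases before the start given by RefSeq (GRCm38.p6), 5′ to 3′ on the gene's strand, chr2:34771840-34772089 on the plus strand for Hspa5 and chr8:94386179-94386428 on the plus strand for Herpud1. Capitals mark matches to the ER stress element (CCAAT, then any 9 bases, then CCACG) in Hspa5, and to its second form (ATTGG, then any 1 base, then CCACG) and the C/EBP-ATF composite site TGATGNAA (read here on the opposite strand) in Herpud1.
Hspa5: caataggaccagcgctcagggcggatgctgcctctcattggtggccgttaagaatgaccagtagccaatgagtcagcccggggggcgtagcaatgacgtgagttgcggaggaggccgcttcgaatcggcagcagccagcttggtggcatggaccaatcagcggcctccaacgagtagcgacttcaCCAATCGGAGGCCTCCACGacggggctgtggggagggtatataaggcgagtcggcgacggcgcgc
Herpud1: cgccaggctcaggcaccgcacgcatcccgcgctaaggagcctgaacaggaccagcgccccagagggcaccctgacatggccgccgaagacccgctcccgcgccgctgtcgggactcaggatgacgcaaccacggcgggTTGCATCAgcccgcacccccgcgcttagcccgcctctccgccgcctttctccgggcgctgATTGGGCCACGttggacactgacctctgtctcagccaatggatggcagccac
Windows of 300 bases (250 before and 50 after the start) were found for 10 of 10 members and were searched on both strands, among 32851 such windows in all. The ER stress element stood in 0.119% of all windows and in Hspa5 alone among the members, at 65 to 47 bases before the start. Its second form stood in 0.0365% of all windows and in Herpud1 alone among the members, at 52 to 42 bases before the start. These matches are a description of letters and not evidence of binding. The XBP1-type element TGACGTGG stood in 0.676% of all windows and in 0 members, and TGACGTCA stood in 1.79% of windows and in Ppp1r15a among the members.

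The composite site TGATGNAA, the form bound by ATF4 with C/EBP proteins, was in 3.97% of all windows and in 5 of the 10 members: Asns, Atf3, Chac1, Herpud1 and Trib3. It is shown for Asns, Atf3 and Chac1 in 40-base windows, with the site in capitals as it reads on the gene's strand, because members with this site did not all pass the test in one direction. The windows lie at chr6:7693210-7693249 (minus strand, Asns), chr1:191183420-191183459 (minus strand, Atf3) and chr2:119351033-119351072 (plus strand, Chac1).
Asns: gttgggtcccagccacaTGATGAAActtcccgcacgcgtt
Atf3: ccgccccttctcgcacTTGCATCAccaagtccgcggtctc
Chac1: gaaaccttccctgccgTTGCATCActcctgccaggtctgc
In Trib3 the site lay 15 to 22 bases after the start. Of these 5 genes 1 was higher in knockout livers (Trib3, called under 12 of 32 alternatives), 1 was lower (Herpud1) and 3 did not pass the test. Across all genes tested 11.5% were higher and 11.0% lower, so counts in 5 genes are not read as particular to the site.

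Mettl3 itself had 76.9, 99.1 and 122 normalised estimated counts at the lowest, median and highest of the knockout libraries, against 199, 219 and 263 in the control libraries. It fell by 1.17 on the log2 scale (SE 0.12, limma, Benjamini-Hochberg adjusted p = 1.32e-05), with no overlap between the groups. A normalised estimated count is the number of reads that kallisto assigned to a gene, divided by 1 size factor per library, and it is not divided by gene length, so levels are compared between libraries and not between genes. Depth, worked out from the values, was 11.1 M to 30.9 M estimated reads in knockout libraries and 13.7 M to 33.8 M in control libraries. Knockouts 1 to 4 and controls 1 to 4 carried Y-linked transcripts, while knockouts 5 to 8 and controls 5 and 6 were high in Xist, and the Xist-high libraries were also shallower (11.1 M to 19.3 M against 24.3 M to 33.8 M). Hepatocyte markers were present in every library, but their summed level was 370279.6 to 750217 in knockouts against 814108 to 948023 in controls, and 5 of the 8 markers fell. In whole liver, fewer cells of a type and less RNA per cell cannot be told apart. Knockouts 6 and 7 had 7.85% and 7.91% of their summed values on mitochondrially encoded protein-coding genes, against 2.77% to 5.47% in the other 12 libraries, and stood at the far end of the first principal component with knockout 3. For each member, and for several genes of the pathway lists, a value without knockouts 6 and 7 is given.

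In knockout livers 2 members were higher (Hspa5 and Trib3), 2 were lower (Herpud1 and Xbp1) and 6 did not pass the test. The test was limma on log2(value + 1) over the 23554 genes that reached 10 normalised estimated counts in 6 or more libraries, called at a Benjamini-Hochberg adjusted p of at most 0.05, and 10 of 10 members met that filter. Across all genes tested 11.5% were called higher and 11.0% lower, 22.4% in either direction, so a count of 4 of 10 members in a list this small is not read as particular to it. When libraries were instead scaled to equal sums of all genes outside ribosomal RNA, 90.0% of all calls were higher, against 51.1% in the fit reported here, and the median log2 change over all genes was 0.38, against 0.05. Under that scaling Hspa5 changed by 1.41, Herpud1 by -0.98 and Xbp1 by -0.52, and all passed. The median log2 change of the members was -0.06, against 0.05 over all genes tested. The knockout and control values did not overlap for 3 of the 10 members (Hspa5, Trib3 and Herpud1), against 8.16% of all genes tested. In the authors' deposited table, whose q values come from the sleuth Wald test, 1 member was higher (Hspa5) and 2 were lower (Herpud1 and Xbp1) at q of at most 0.05, against 17.1% of the genes tested there in either direction.

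**Figure D1:**
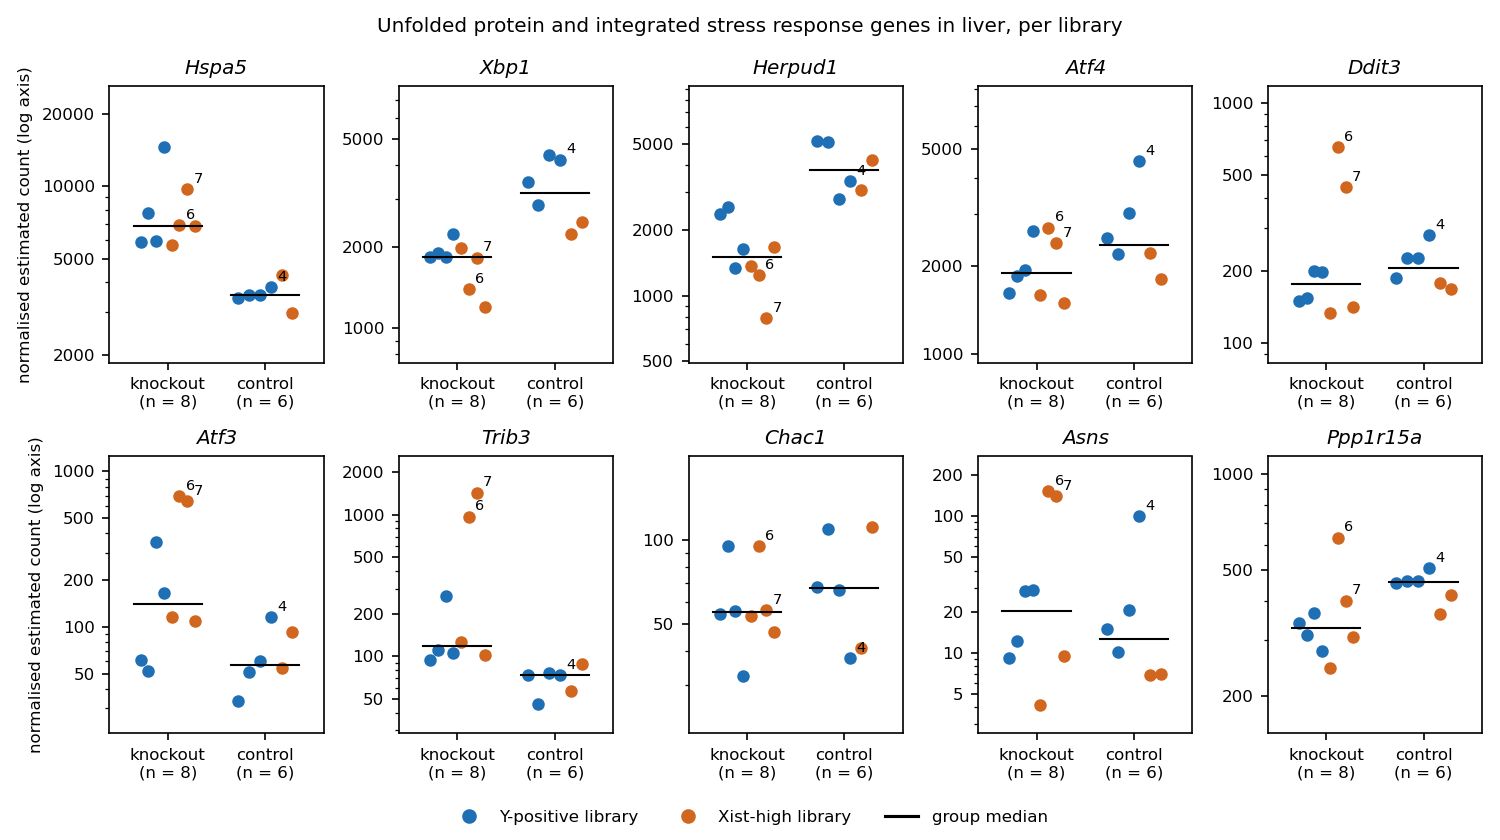
Normalised estimated counts of the 10 members in each library, knockout (n = 8) left of control (n = 6), on log axes that differ between panels; points are libraries, coloured by Xist class, lines are group medians, and the digits mark knockouts 6 and 7 and control 4. Hspa5 and Trib3 lie above every control and Herpud1 below every control. Knockouts 6 and 7 stand high for Ddit3, Atf3, Trib3 and Asns, and for Ppp1r15a knockout 6 stands high with knockout 7 inside the control range.

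The plot of values by library shows the spread behind each result below: for the ER genes Hspa5, Xbp1 and Herpud1 all or nearly all knockouts lay outside the control values, while for several ATF4-side genes knockouts 6 and 7 lay far above the rest of their group.

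Hspa5 (ENSMUSG00000026864, chr2:34771970-34777547, plus strand), which encodes BiP, the main chaperone of the ER lumen and the protein that holds the sensors inactive, had 5708, 6866 and 14488 normalised estimated counts at the lowest, median and highest knockout, against 2969, 3531 and 4287 in controls. All 8 knockouts were above all 6 controls, and knockout 4 was the highest. The means were 7903 ± 2968 in knockout livers (SD, n = 8) and 3599 ± 437 in control livers (SD, n = 6), a log2 change of 1.07 (SE 0.19, 95% interval 0.68 to 1.47, limma, Benjamini-Hochberg adjusted p = 0.000848). An exact permutation test over libraries, adjusted over all genes in the same way, gave 0.00638, and the authors' deposited table gave q = 2.92e-06. The change was 1.14 in the Y-positive libraries (4 knockouts and 4 controls, limma adjusted p = 0.0166) and 1.0 in the Xist-high libraries (4 and 2, limma adjusted p = 0.108).

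Herpud1 (ENSMUSG00000031770, chr8:94386438-94395377, plus strand), an ER membrane protein of the degradation complex and a gene usually induced with Hspa5, had 787, 1511 and 2573 in knockouts, against 2785, 3804 and 5147 in controls. Every knockout was below every control. Its means were 1629 ± 592 in knockout livers (SD, n = 8) and 3948 ± 1029 in control livers (SD, n = 6), a log2 change of -1.32 (SE 0.24, 95% interval -1.82 to -0.82, limma, Benjamini-Hochberg adjusted p = 0.00104). The lowest values, 787 and 1245, were in knockouts 7 and 6, and without both libraries the change was -1.11 (limma adjusted p = 0.00179). In the Y-positive libraries it was -1.05 (limma adjusted p = 0.0233) and in the Xist-high libraries -1.55 (limma adjusted p = 0.0492). The antisense gene Gm15890 shares 535 bases with Herpud1 and had a mean value of 26.4, and the strand setting of the counting is not given in the sources used here.

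Xbp1 (ENSMUSG00000020484, chr11:5520659-5525893, plus strand), the transcription factor whose mRNA IRE1 splices and which drives chaperone and degradation genes, had 1194, 1828 and 2237 in knockouts, against 2222, 3169 and 4365 in controls. Of the 8 knockouts 7 were below the lowest control, and knockout 4 (2237) overlapped with control 5 (2222). The means were 1772 ± 329 in knockout livers (SD, n = 8) and 3265 ± 896 in control livers (SD, n = 6), a log2 change of -0.86 (SE 0.17, 95% interval -1.23 to -0.49, limma, Benjamini-Hochberg adjusted p = 0.00239). The table gives 1 value per gene, which does not tell the IRE1-spliced form from the unspliced form. The change was -0.92 in the Y-positive libraries (limma adjusted p = 0.0053) and -0.58 in the Xist-high libraries (limma adjusted p = 0.225), where only 2 controls were left.

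**Figure D2:**
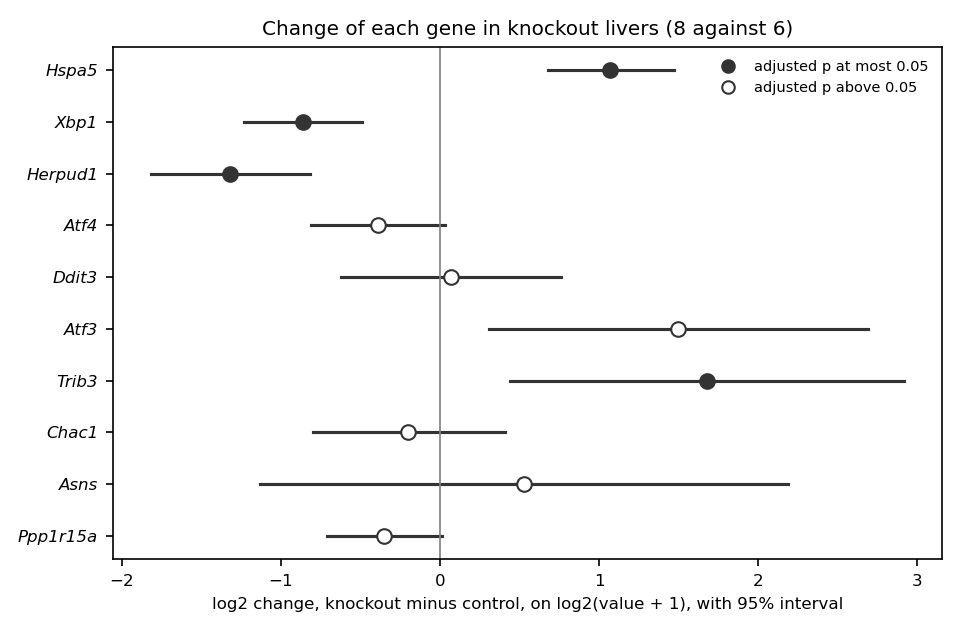
Log2 change of each member, knockout minus control, on the log2(value + 1) scale, with 95% intervals from limma (8 knockouts, 6 controls); filled points passed a Benjamini-Hochberg adjusted p of at most 0.05. Hspa5 and Trib3 lie above 0, Herpud1 and Xbp1 below it, and the widest intervals belong to Asns, Atf3 and Trib3.

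As the plot of changes by gene shows, the intervals of Hspa5, Herpud1 and Xbp1 were narrow beside those of Asns, Atf3 and Trib3. Hspa5 was also set against Herpud1 and Xbp1 within each library. The ratio of the Hspa5 value to the Herpud1 value was 2.48, 4.28 and 12.4 at the lowest, median and highest knockout, against 0.670, 0.917 and 1.40 in controls. The ratio of Hspa5 to Xbp1 was 2.88, 4.51 and 6.48 in knockouts, against 0.809, 1.10 and 1.93 in controls. The size factor of a library cancels in such a ratio, and the groups did not overlap in either one. That separation follows from the ranges of the single genes given above and is not a further result. The level of a ratio also carries the lengths of the 2 genes, so only its difference between libraries is read, and no test was made on it.

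**Figure D3:**
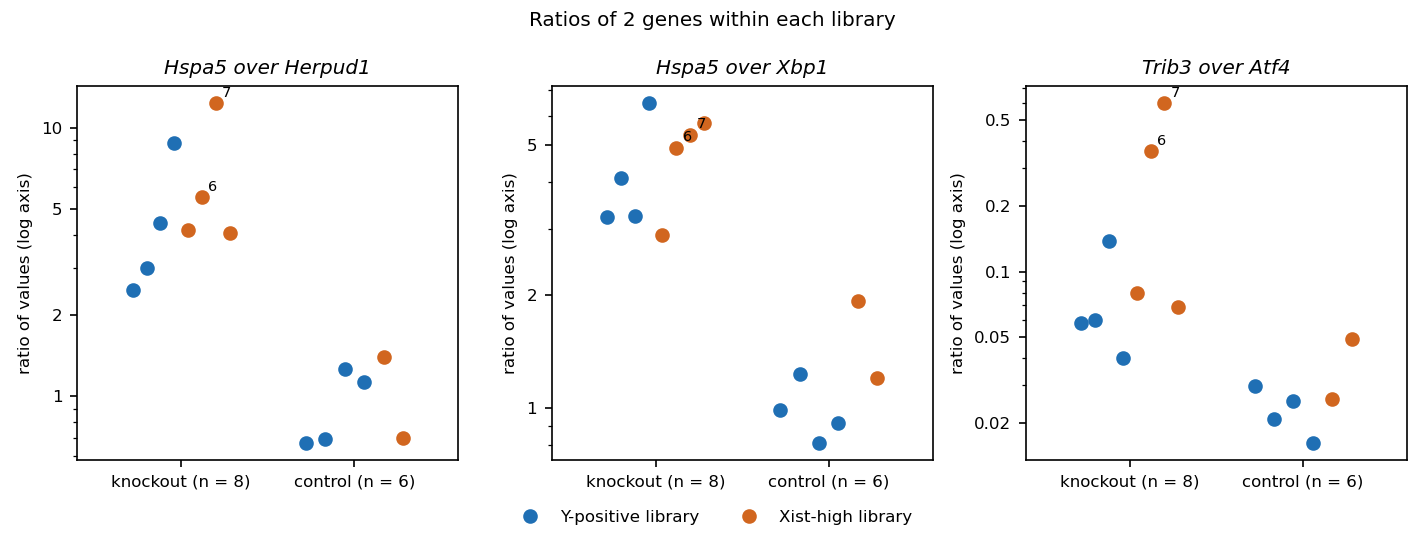
Ratios of normalised estimated counts of 2 members within a library, knockout (n = 8) left of control (n = 6), on log axes; points are libraries, coloured by Xist class, and the digits mark knockouts 6 and 7. Hspa5 over Herpud1 and Hspa5 over Xbp1 are above every control in all 8 knockouts, and Trib3 over Atf4 reaches 0.598 in knockout 7, with knockout 4 at 0.0401 inside the control range.

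Atf4 (ENSMUSG00000042406, chr15:80255184-80257541, plus strand), the transcription factor at the centre of the integrated stress response, is controlled mainly by translation, which these data do not measure. Its mRNA had 1496, 1894 and 2700 normalised estimated counts at the lowest, median and highest knockout, against 1808, 2350.5 and 4565 in controls. The groups overlapped and the log2 change was -0.39 (SE 0.20, 95% interval -0.81 to 0.03, limma, Benjamini-Hochberg adjusted p = 0.177). Control 4 held the highest value of all 14 libraries.

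Ddit3 (ENSMUSG00000025408, chr10:127290774-127296288, plus strand), which encodes the proapoptotic factor CHOP, had 133, 176 and 653 in knockouts, against 167, 206 and 281 in controls. Knockouts 6 (653) and 7 (447) were above every control, and the other 6 knockouts, at 133 to 199.5, were within or below the control range. The log2 change was 0.07 (SE 0.33, 95% interval -0.62 to 0.76, limma, Benjamini-Hochberg adjusted p = 0.907), and without knockouts 6 and 7 its sign turned, to -0.37 (limma adjusted p = 0.0971). Mars, the methionyl-tRNA synthetase gene, on the opposite strand, shares 68 bases at its end with Ddit3 and had a mean value of 1275. Reads within those bases could be told apart only by strand. Mars fell by 0.55 on the log2 scale (SE 0.10, limma, Benjamini-Hochberg adjusted p = 0.00129), or by 0.22 with equal sums (limma adjusted p = 0.066).

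Atf3 (ENSMUSG00000026628, chr1:191170296-191218039, minus strand), a stress-induced repressor downstream of ATF4, had 52.1, 141 and 694 in knockouts, against 33.2, 57.3 and 115 in controls. Of the 8 knockouts 5 were above the highest control, led by knockouts 6 (694), 7 (647) and 3 (352), while knockouts 1, 2 and 8 were within the control range. Knockout 5 (115.55) was only just above control 4 (115.47). The log2 change was 1.5 (SE 0.56, 95% interval 0.31 to 2.69), which missed the threshold (limma, Benjamini-Hochberg adjusted p = 0.0659). It was 0.87 without knockouts 6 and 7 (limma adjusted p = 0.159), and passed without knockout 1 (1.72, limma adjusted p = 0.0357) or knockout 2 (1.76, limma adjusted p = 0.0293). Leaving out any other single library did not bring Atf3 past the threshold (limma adjusted p from 0.0624 to 0.134).

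Trib3 (ENSMUSG00000032715, chr2:152337422-152344032, minus strand), a pseudokinase induced by ATF4 and CHOP that restrains ATF4, had 93.5, 118 and 1433 in knockouts, against 46.0, 74.2 and 88.5 in controls. All 8 knockouts were above all 6 controls, but 5 of them narrowly, at 93.5 to 127, while knockouts 3 (268), 6 (970.1) and 7 (1433) were far above. The means were 401 ± 512 in knockout livers (SD, n = 8) and 69.4 ± 15.3 in control livers (SD, n = 6), a log2 change of 1.68 (SE 0.58, 95% interval 0.44 to 2.92), which passed by a small margin (limma, Benjamini-Hochberg adjusted p = 0.0496). The change was 0.87 without knockouts 6 and 7 (SE 0.24, limma adjusted p = 0.021) and 0.65 without knockouts 3, 6 and 7 (SE 0.17, limma adjusted p = 0.0175). The call was lost without knockout 3 (1.64, limma adjusted p = 0.0794), 6 (1.37, 0.0756) or 7 (1.29, 0.0577), without any 1 of the controls (limma adjusted p from 0.0655 to 0.0938), and in the authors' deposited table (q = 0.0598).

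The value of Trib3 over that of Atf4 within a library was 0.0401, 0.0740 and 0.598 at the lowest, median and highest knockout, against 0.0162, 0.0255 and 0.0490 in controls. As the plot of ratios shows, 7 of the 8 knockouts were above the highest control and knockout 4 was not.

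Chac1 (ENSMUSG00000027313, chr2:119351229-119354381, plus strand), which degrades glutathione and is a target of ATF4 and ATF3, had 32.4, 55.0 and 95.2 in knockouts, against 37.7, 67.0 and 111 in controls. The groups overlapped throughout, and the log2 change was -0.20 (SE 0.29, 95% interval -0.80 to 0.41, limma, Benjamini-Hochberg adjusted p = 0.668), with a sign that turned to 0.14 when libraries were scaled to equal sums.

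Asns (ENSMUSG00000029752, chr6:7675169-7693254, minus strand), asparagine synthetase and a classic amino acid response gene, had 4.14, 20.2 and 152 in knockouts, against 6.90, 12.6 and 99.4 in controls. Knockouts 6 (152) and 7 (141) and control 4 (99.4) were far above the other 11 libraries, which lay between 4.14 and 28.7. The log2 change was 0.53 (SE 0.78, 95% interval -1.13 to 2.19, limma, Benjamini-Hochberg adjusted p = 0.671) and turned to -0.33 without knockouts 6 and 7. The lowest value stood for 2.42 estimated reads and the values of those 11 libraries for 2.42 to 46.9.

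Ppp1r15a (ENSMUSG00000040435, chr7:45522916-45526268, minus strand) encodes GADD34, the stress-induced subunit that brings phosphatase to eIF2 and ends the response. It had 245, 327 and 631 in knockouts, against 362, 458 and 507 in controls. Of the 8 knockouts 5 were below the lowest control and knockout 6 (631) was above the highest. The log2 change was -0.35 (SE 0.17, 95% interval -0.71 to 0.01, limma, Benjamini-Hochberg adjusted p = 0.154). It passed the test without knockout 6 (-0.47, limma adjusted p = 0.0113), without knockouts 6 and 7 (-0.53, SE 0.11, limma adjusted p = 0.00512) and in the Y-positive libraries alone (-0.54, limma adjusted p = 0.0144). When libraries were scaled to equal sums, the Ppp1r15a change was -0.01 (limma adjusted p = 0.963). Tulp2, on the opposite strand, shares 717 bases with it and had a mean value of 34.3.

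Knockouts 6 and 7 held the 2 highest of the 8 knockout values for 5 of the 10 members (Ddit3, Atf3, Trib3, Asns and Ppp1r15a), against 13.4% of all genes tested, and the 2 lowest for 1 of the 10 (Herpud1), against 9.67% of all genes tested, a share near that of all genes. Without them the log2 changes were 1.03 for Hspa5 (limma adjusted p = 0.00272), -0.82 for Xbp1 (0.00743), -0.51 for Atf4 (0.0904) and -0.31 for Chac1 (0.518). No test was made of the counts of highest and lowest values, and adjusted p-values without knockouts 6 and 7 are given as description only. These libraries were singled out after their values were seen, and no label sets them apart. They are also the libraries with the largest share on mitochondrially encoded protein-coding genes (7.85% and 7.91%) and the lowest summed hepatocyte markers (370279.6 and 383483, against 455607 to 750217 in the other knockouts). The part of these in the values was not tested. Control 4 was the highest control for 5 of the 10 members (Atf4, Ddit3, Atf3, Asns and Ppp1r15a, at 4565, 281, 115, 99.4 and 507), against 16.7% of all genes tested. It was the lowest control for Chac1 (37.7) and inside the range of the controls for Hspa5, Xbp1, Herpud1 and Trib3.

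**Figure D4:**
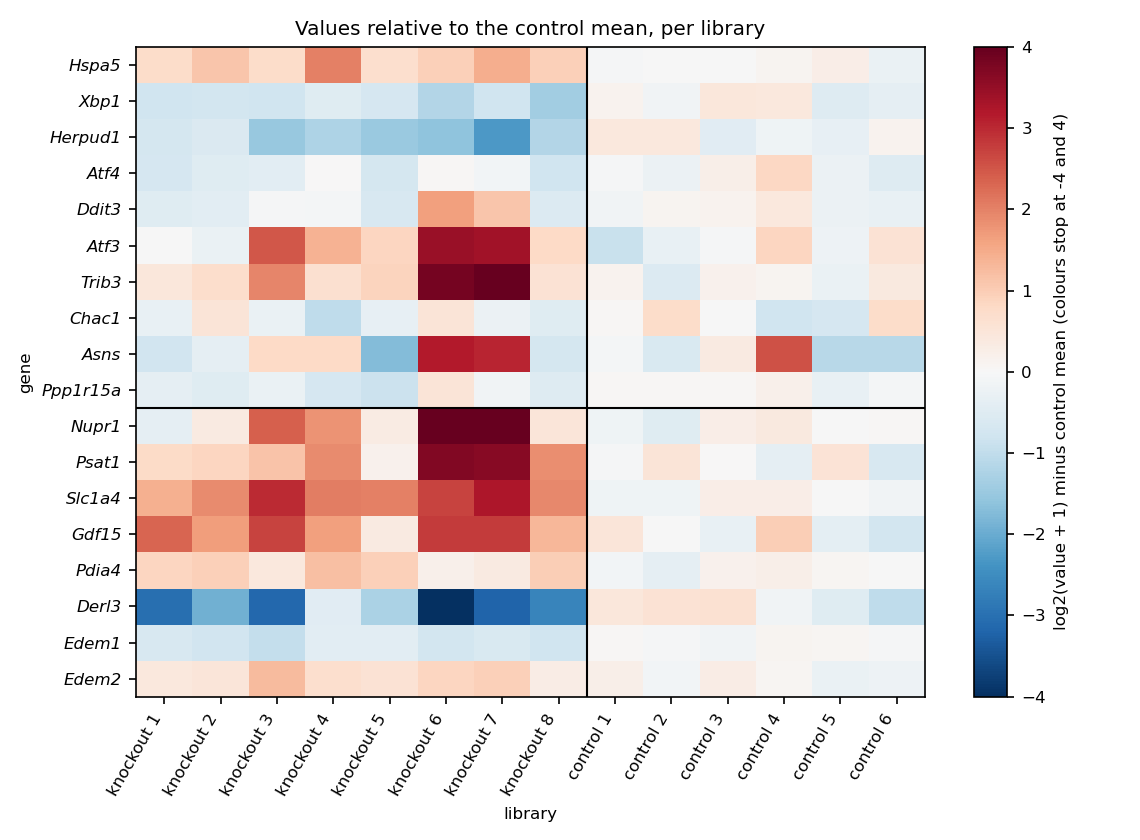
Log2(value + 1) minus the control mean for the 10 members and 8 further genes of the same pathways in each library, knockouts left of controls; colours stop at -4 and 4. Hspa5 is above and Herpud1 and Xbp1 below the control mean across the knockouts, while Ddit3, Atf3, Trib3, Asns, Nupr1 and Psat1 are strongest in knockouts 6 and 7.

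The plot of library values relative to the control mean sets both patterns side by side. Whether a change differed between the Xist classes was tested directly with an interaction term. No member passed (limma, 0 of 10 at an adjusted p of at most 0.05 and 0 of 10 at an unadjusted p under 0.05), and 0.0552% of all genes tested did. With 2 Xist-high controls, a difference between classes of moderate size was not detectable.

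Cell-type markers moved beside these results. Cholangiocyte markers summed to 1073 to 3527 in knockouts and 697 to 1247 in controls, with 3 of 6 higher (Sox9, Epcam and Spp1), and neutrophil markers summed to 86.9 to 224 in knockouts and 58.5 to 115 in controls, with 0 of 3 tested called. Kupffer cell markers summed to 4089 to 11109.9 in knockouts and 6104 to 8262 in controls, stellate cell markers to 1708 to 2913 in knockouts and 2043 to 2867 in controls, and lymphocyte markers to 114 to 205 in knockouts and 124 to 222 in controls, with no marker of these called. Endothelial markers summed to 2615 to 4527 in knockouts and 3921 to 4735 in controls, with Kdr and Clec4g of 6 lower. Erythroid markers summed to 5696 to 12777 in knockouts and 5418 to 19229 in controls with none called, and pancreatic acinar markers to 101 to 8744 in knockouts and 294 to 823 in controls, with Cela1 lower. Of the 6 acinar markers 2 were tested. The highest acinar sum was in a knockout other than 6 and 7, which had 160 and 101, so the acinar sums did not only fall in knockouts. No marker was at 0 in all libraries, and the part of cell composition in the changes of the members and of the pathway genes below was not tested.

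Beyond the 10 members, 83 genes of the same pathways were taken in 8 lists. Of these 82 were tested, 14 were higher (17.1%, against 11.5% of all genes tested), 13 were lower (15.9%, against 11.0%) and 55 did not pass, with a median log2 change of 0.05, the same as over all genes. Scaled to equal sums, 30 were higher and 2 lower, so the balance between the directions depends on the scaling. The lists hold 5 to 15 genes each, and their counts are set out against the same 11.5% and 11.0%, with nothing read as particular to a list.

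**Figure D5:**
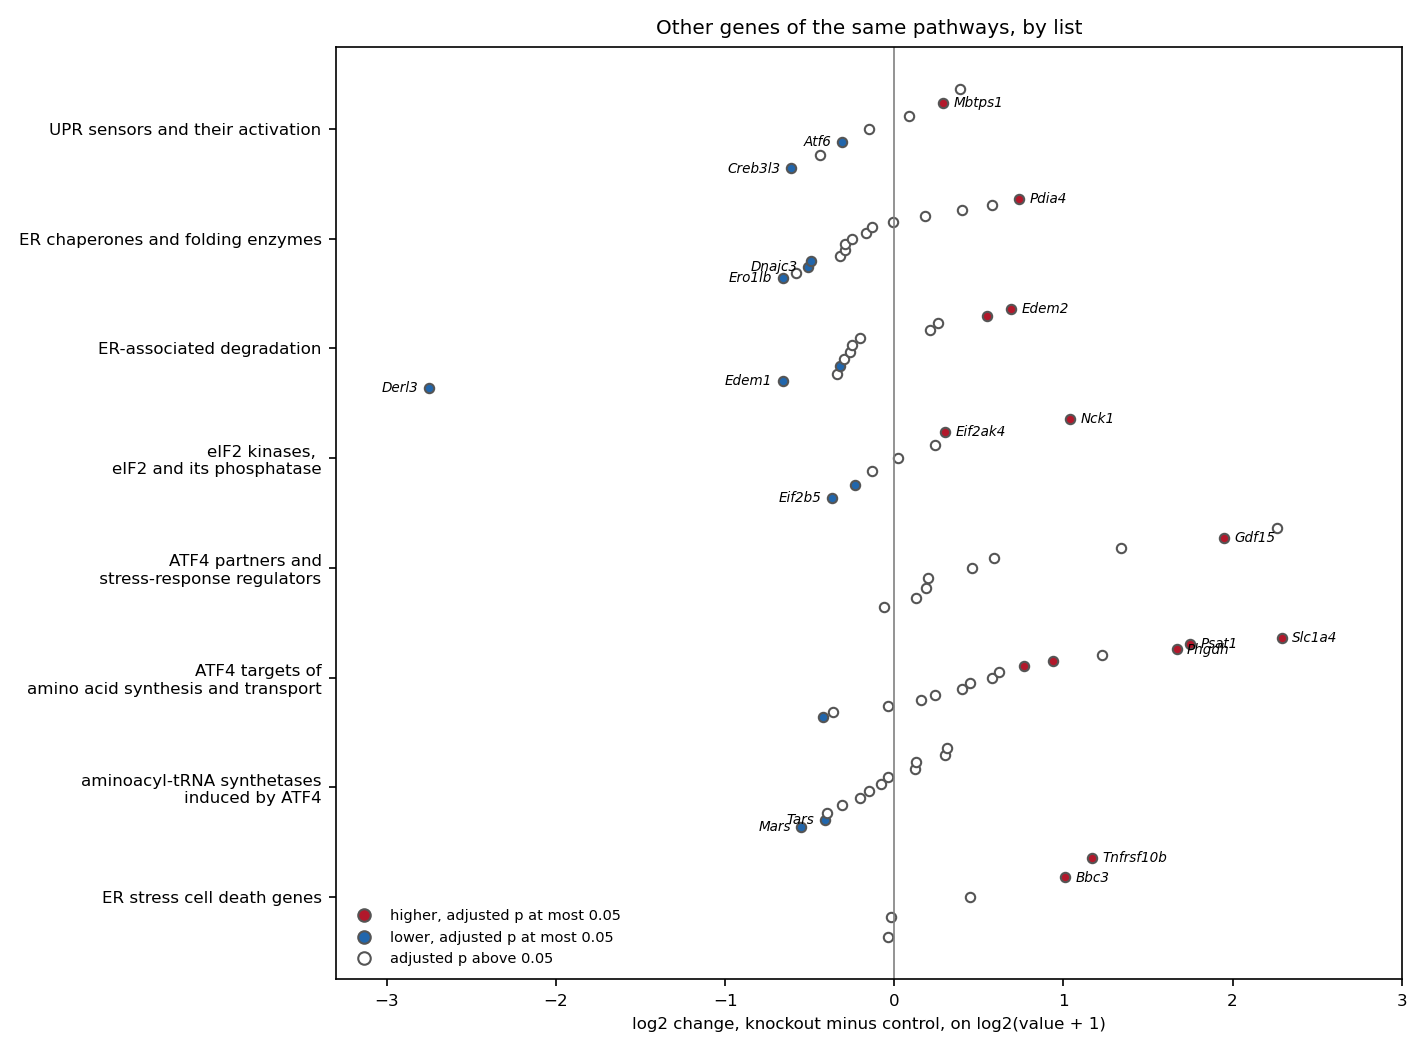
Log2 change, knockout minus control, of the 82 tested pathway genes in 8 lists (8 knockouts, 6 controls; limma); red points were called higher, blue points lower at a Benjamini-Hochberg adjusted p of at most 0.05, and open points were not called. The genes of each list spread to both sides of 0 in the ER lists, and Derl3 at -2.75 and Slc1a4 at 2.29 are the farthest called points.

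Among 7 sensors and activating proteases 1 was higher, 2 were lower and 4 were not called (median log2 change -0.15), as the plot of pathway genes by list shows. Creb3l3, a liver ER-bound transcription factor, fell to 2621 ± 554 in knockout livers, against 3951 ± 482 in control livers (SD, n = 8 and 6; log2 change -0.61, SE 0.14, limma, Benjamini-Hochberg adjusted p = 0.00629). The Creb3l3 call held under 28 of 32 alternatives and was lost with equal sums (-0.27, limma adjusted p = 0.0946). Atf6 fell to 1159 ± 126 in knockout livers, against 1430 ± 133 in control livers (log2 change -0.31, SE 0.09, limma, Benjamini-Hochberg adjusted p = 0.0268), but its sign turned to 0.03 when libraries were scaled to equal sums. Mbtps1, the site-1 protease that cleaves ATF6, was higher at 469 ± 33.7 in knockout livers, against 385 ± 49.4 in control livers (log2 change 0.29, SE 0.09, limma, Benjamini-Hochberg adjusted p = 0.0293). The Mbtps1 call held under 20 of 32 alternatives and was lost without knockouts 6 and 7 (limma adjusted p = 0.0661) and in the authors' deposited table (q = 0.0899). Ern1 and Eif2ak3, which encode IRE1 and PERK, had log2 differences of -0.15 (limma adjusted p = 0.432) and 0.09 (limma adjusted p = 0.88).

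Of 15 ER chaperones and folding enzymes other than Hspa5, 1 was higher, 3 were lower and 11 were not called (median -0.25). Pdia4, a disulfide isomerase, was higher at 6652 ± 1581 in knockout livers, against 3911 ± 572 in control livers (log2 change 0.74, SE 0.16, limma, Benjamini-Hochberg adjusted p = 0.00395). Ero1lb, an ER oxidase, changed by -0.66 (SE 0.18, limma adjusted p = 0.0137) and Dnajc3, a co-chaperone of BiP that inhibits PERK, by -0.51 (SE 0.16, limma adjusted p = 0.028), while Creld2 was the third one called lower. The Ero1lb call held under 26 of 32 alternatives, among which the change was as small as -0.33 and the limma adjusted p as high as 0.161. Creld2 (-0.49, limma adjusted p = 0.0426) passed in the authors' deposited table (q = 0.0332) but not in the exact permutation test (adjusted p = 0.0725). The Dnajc3 call held under 17 of 32 alternatives and was lost with equal sums (-0.17, limma adjusted p = 0.351) and without knockouts 6 and 7 (-0.37, limma adjusted p = 0.0656). The ER chaperone Hsp90b1 had 5678 to 12837 in knockouts against 7842 to 10968 in controls (log2 change -0.29, limma adjusted p = 0.196). Its highest value was in knockout 4, the only knockout above the controls, while 6 knockouts were below the lowest control. Knockout 4 was also the only knockout above every control for Dnajb11, Hyou1, Pdia6, Calr and Creld2. For the other genes of this list either no knockout or several knockouts were above every control.

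In ER-associated degradation 2 of 12 genes were higher, 3 lower and 7 not called (median -0.26). Derl3, a membrane channel component, fell to 18.8 ± 19.2 in knockout livers, against 87.9 ± 35.9 in control livers (log2 change -2.75, SE 0.68, limma, Benjamini-Hochberg adjusted p = 0.00885), with knockout 6 listed at 0, and it changed by -2.07 without knockouts 6 and 7 (limma adjusted p = 0.00556). The EDEM lectins, which mark misfolded glycoproteins for disposal, split. Edem1 was lower (716 ± 91.5 in knockout livers, 1130 ± 73.7 in control livers; log2 change -0.66, SE 0.09, limma adjusted p = 0.000179), while Edem2 was higher (621 ± 146 in knockout livers, 379 ± 60.9 in control livers; log2 change 0.69, SE 0.15, limma adjusted p = 0.00367), each without overlap of the groups. Edem3 was the other higher gene and Erlec1 the other lower one.

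Among 7 genes of eIF2, its kinases and its phosphatase 2 were higher, 2 lower and 3 not called (median 0.02). Nck1, an adaptor protein known to restrain PERK signalling, was higher at 1154 ± 226 in knockout livers, against 554 ± 46.6 in control livers (log2 change 1.04, SE 0.12, limma, Benjamini-Hochberg adjusted p = 3.69e-05), without overlap. Eif2b5, a subunit of the exchange factor for eIF2, changed by -0.37 (SE 0.10, limma adjusted p = 0.0173) and Eif2ak4, the amino acid sensing kinase GCN2, by 0.30 (SE 0.09, limma adjusted p = 0.0286). The Eif2b5 call held under 27 of 32 alternatives, among which the change was as small as -0.03 and the limma adjusted p as high as 0.868. The Eif2ak4 call held under 18 of 32 alternatives and was lost without knockouts 6 and 7 (0.25, limma adjusted p = 0.0752) and in the authors' deposited table (q = 0.0979).

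Of 15 ATF4 targets in amino acid synthesis and transport 5 were higher (33.3%, against 11.5% of all genes tested), 1 was lower (Gpt2) and 9 were not called (median 0.58). Slc1a4, a neutral amino acid transporter, had 189.6 to 671 in knockouts against 61.5 to 84.5 in controls (log2 change 2.29, SE 0.25, limma, Benjamini-Hochberg adjusted p = 2.09e-05), without overlap. Psat1 and Phgdh, enzymes of serine synthesis, changed by 1.75 (SE 0.51, limma adjusted p = 0.0221) and 1.67 (SE 0.37, limma adjusted p = 0.00423), with Psat1 at 144 and 140.2 in knockouts 6 and 7. Without these 2 libraries Psat1 changed by 1.11 (limma adjusted p = 0.025), and its call held under 26 of 31 alternatives. Phgdh values were low, at 11.6 to 33.0 in knockouts and 1.36 to 15.7 in controls. The lowest stood for 0.867 estimated reads, and the knockouts alone met the filter of 10 in 6 libraries, so the size of the Phgdh change is uncertain. The 12 tRNA synthetases, also ATF4 targets, held 0 higher, 2 lower (Mars and Tars) and 10 not called (median -0.12). The Tars change was -0.41 (SE 0.13, limma, Benjamini-Hochberg adjusted p = 0.0303), and its call held under 12 of 32 alternatives, with -0.07 under equal sums (limma adjusted p = 0.628).

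Among 9 tested ATF4 partners and stress regulators 1 was higher and 8 were not called (median 0.46), and Stc2 was too low to test. Gdf15, a stress hormone, was higher at 233 ± 116 in knockout livers, against 56.4 ± 27.4 in control livers (log2 change 1.95, SE 0.37, limma, Benjamini-Hochberg adjusted p = 0.00173). Of 5 ER stress death genes 2 were higher: Tnfrsf10b, the death receptor (log2 change 1.17, SE 0.26, limma adjusted p = 0.00456), and Bbc3, which encodes PUMA (log2 change 1.01, SE 0.21, limma adjusted p = 0.00302), each without overlap, while Ddit3 was not called.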

How the data were processed

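Total RNA of flash-frozen liver (Trizol, a Takara SMARTer stranded Pico kit, per the labels' protocols) was processed with kallisto and sleuth against mm10, per the submitters' processing notes; versions and the strand setting are not given in the sources used here. The deposited signal values are normalised estimated counts, one size factor per library, read from the values: 27.9% to 29.8% of low values were whole multiples of 1 read (tolerance 0.02 reads), so depth was taken from that worth and no binomial interval was given. The deposited q-value (p-value adjusted by the authors) was copied. The authors' change is a natural log of control over knockout. Its sign gave the direction of the authors' calls, and its size is not reported here.

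The 75859 lines were reduced to 54446 genes. The design allowed for counts, but the values are not counts, so limma 3.58.1 (R 4.3.3) with a trended prior variance was run on log2(value + 1), filtered at 10 in 6 libraries, adjusted by Benjamini-Hochberg over 23554 genes, knockout minus control, without covariate. Fold changes of low genes are understated on this scale. Alternatives were other thresholds, filters, pseudocounts and scalings, covariates, subsets, single libraries left out, and, added after seeing the data, exact permutation counts, knockouts 6 and 7 left out, and voom weights at the deposited scaling. Sequences are from RefSeq. The rule for the members uses symbols alone, but members and lists were chosen with earlier results of these data known. Named are Mettl3, the members and the 3 called genes of each list with the largest change; others named were chosen after their values were seen.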

Additional observations from a re-analysis of the deposited data

Results flagged for a closer look

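Values of 62 groups of libraries (the genes named, in knockouts or in controls) were checked for a single library far from the rest of its group, and 3 such values were found, where chance gives about 5% of groups. Derl3 was 0 in knockout 6, with the next knockout at 8.003. Tars was 677.8 in control 6, with the next control at 870.5. Bbc3 was 48.3 in control 2, with the next control at 87.7. None of these is a member of the 10 genes.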

How the results depend on the processing

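Herpud1 was called lower under 32 of 32 alternatives, and Hspa5 and Xbp1 under 31 of 32, each lost only in the Xist-high libraries. Trib3 was called under 12 of 32 (adjusted p 0.0174 to 0.262), Atf3 under 5 and Ppp1r15a under 4. Of the 2 members called higher, 1 was left at a threshold of 0.01, with no filter, with a pseudocount of 0.1, quantile normalization, Xist class or depth as a covariate, Y-positive libraries only, the authors' q, exact permutation or voom weights at the deposited scaling, and 0 in Xist-high libraries; single libraries left out gave 1 to 3. Of the 2 lower, 1 was left in Xist-high libraries (2 to 3 with libraries left out). In the voom fit libraries are also rescaled to their sums, much as with equal sums outside ribosomal RNA, and with voom weights at the deposited scaling the counts were 13 higher and 12 lower among pathway genes and 2520 higher and 2558 lower among all genes (49.6% higher). Pathway genes called higher were 30 with equal sums or voom and 2 in Xist-high libraries (11 to 17 with libraries left out). Pathway genes called lower were 5 at 0.01, 4 at a 1.5-fold minimum, 2 with equal sums or voom, 7 with quantile normalization, 8 with Y-positive libraries only and 0 with Xist-high ones (7 to 16 with libraries left out). All genes called higher were 1311 at 0.01, 7833 with equal sums, 7398 with voom, 1646 with Y-positive libraries only and 213 with Xist-high ones (2192 to 2850), and lower 1358 at 0.01, 1371 at 1.5-fold, 866 with equal sums, 845 with voom and 79 in Xist-high libraries (2040 to 2798). Equal sums moved the share of calls that were higher to 90.0%, and the rescaling voom fit to 89.7%, against 51.1%, and the median log2 change of all genes to 0.38, against 0.05. Signs turned for Ddit3 (-0.39 in Y-positive libraries, -0.43 without knockouts 3, 6 and 7, -0.37 without 6 and 7, -0.003 with a replicate block, -0.16 to 0.17 with single libraries left out), Chac1 (0.14 with equal sums and with voom), Asns (-0.44, -0.55 and -0.33 in the first 3 of those settings) and Atf6 (0.03 with equal sums and with voom). The causes were not tested.

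Same-numbered knockouts and controls correlated at 0.0707 to 0.228, below 0.1 for number 3, and unlike-numbered ones at -0.267 to 0.262. The same number gave the highest correlation for controls 2 and 4 and not for the other controls. The numbers were not taken to pair, but these correlations do not settle whether they do. With the replicate block Hspa5 changed by 1.03, Atf3 passed at 1.32 (limma adjusted p = 0.0362), and 7 pathway genes were lower.

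Low depth limits genes with low values such as Asns, and the 2 Xist-high controls limit comparisons within that class.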

Other observations

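Across the wider pathway, knockouts 6 and 7 were the 2 highest of the 8 knockouts for 28 of the 82 genes tested (34.1%), against 13.4% of all genes. By list this held for 7 of 12 tRNA synthetases, 7 of 15 amino acid genes and 5 of 9 ATF4 partners and regulators, for 3 of 5 ER stress death genes, for 2 of 7 sensors, 2 of 7 genes of eIF2 and its kinases and 2 of 12 genes of ER-associated degradation, and for 0 of 15 ER chaperones and folding enzymes. Nupr1, a stress-induced chromatin protein, had 2651 and 2276 normalised estimated counts in knockouts 6 and 7, while the remaining knockouts had 18.8 to 133 and controls 17.2 to 33.0. Sars, seryl-tRNA synthetase, had 5303 and 4721 in knockouts 6 and 7, while the remaining knockouts had 1513 to 2468 and controls 1770.2 to 2252. Gars, glycyl-tRNA synthetase, had 1031 and 1025 in the same libraries, while the remaining knockouts had 329 to 651 and controls 361 to 442. Aldh18a1, which begins proline synthesis, had 83.8 and 109 in knockouts 6 and 7, while the remaining knockouts had 6.01 to 37.2 and controls 6.23 to 10.3. These genes were chosen after their values were seen, and none of the 4 passed the test between knockout and control livers.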
